A study of Mus musculus with 4 samples.

Results

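The cytosolic ribosomal protein (RP) genes encode the protein part of the 80S ribosome, and 83 of the 32285 genes in the count matrices belong to this set. Members were taken by symbol: Rpl or Rps with a number and an optional letter ending, plus Rplp0, Rplp1, Rplp2 and Rpsa, with pseudogene rows left out. By symbol, 51 belong to the large subunit and 32 to the small subunit. At least 1 molecule was counted for 81 of them, and 80 reached a mean of 20 CPM over the 4 conditions. CPM here is a gene's unique molecular identifiers (UMIs, the tags that count captured RNA molecules) scaled so that all genes of the same cells sum to 1000000. Rpl3l and Rpl10l had no UMI, and Rpl39l lay below the level used for counting genes.

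The cells were regulatory T (Treg) cells of visceral adipose tissue (VAT) from male mice, sorted as live CD3+ CD4+ Foxp3+ cells and sequenced as single cells from the 5′ end of the RNA. In the first experiment, the KO cells came from 4 Srebf2flox/flox mice and the WT cells from 4 Srebf2WT/WT mice, all 25 weeks old and at steady state. The labels write Foxp3YFP-cre once, ahead of both genotypes, and it is read here as carried by both. Foxp3YFP-cre drives Cre recombinase from Foxp3, and Srebf2 encodes a transcription factor of cholesterol synthesis. In the second, the HFD cells came from 5 Foxp3thy1.1 PpargTdt mice on a high-fat diet and the NCD cells from 5 such mice on normal chow, with 22 weeks of diet and ages of 23 to 27 weeks. Both groups of the second experiment carry the Foxp3thy1.1 and PpargTdt reporter alleles and have intact Srebf2 as far as the labels say. Each condition is 1 pool of mice marked with its own antibody hashtag, so neither KO against WT nor HFD against NCD can be tested. Intervals are 95% and cover counting error only.

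Cytosolic ribosomes hold a single copy of nearly every RP, so cells make these proteins in matched amounts. Most RP mRNAs begin with a cytosine followed by an unbroken run of pyrimidines (a terminal oligopyrimidine, or TOP, tract), through which mTOR signalling and LARP1 control their translation. Free RPs such as Rpl5 and Rpl11 can bind Mdm2 and so stabilise p53 when ribosome assembly is disturbed. RP mRNAs are among the most abundant messages of lymphocytes, which puts the set among the best measured genes in these data.

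The sequences at the transcription start of 8 members are shown because these members span the range of the results below, with Rpl28, Rps26, Rpl31 and Rps15a at the high end of the diet comparison, Rpl37a and Rps27l at its low end, Rps27 with the lowest edgeR log2 change of Il1rl1+ over Il1rl1- cells, and Rpl22 as a member with a short run. They are the sense strand of RefSeq promoter windows on build GRCm38.p6, and capitals mark the longest pyrimidine run that begins with C between 30 bases before and 50 bases after the annotated start.
Rpl28: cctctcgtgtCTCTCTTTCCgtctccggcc
Rps26: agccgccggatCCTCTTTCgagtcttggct
Rpl31: tcgccacaCCTCTTCCTCCTCgcctccccg
Rps15a: gcccggcccaCTCTCTTTCTgccatcttcc
Rps27: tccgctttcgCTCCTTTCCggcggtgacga
Rpl37a: gcattgcgtCCCTTCCTCTTCggacttggg
Rps27l: cccgcctccaCTCCTCTCCactcctccccg
Rpl22: atatcagcgctgCTTCTggaatgttccagc
These stretches lie at chr7:4792953-4792982 on the plus strand (Rpl28), chr10:128626484-128626513 on the minus strand (Rps26), chr1:39367825-39367854 on the plus strand (Rpl31), chr7:118116143-118116172 on the minus strand (Rps15a), chr3:90213631-90213660 on the minus strand (Rps27), chr1:72711275-72711304 on the plus strand (Rpl37a), chr9:66946054-66946083 on the plus strand (Rps27l) and chr4:152324414-152324443 on the plus strand (Rpl22). Relative to the annotated start, the stretch of Rpl37a lies wholly after it, that of Rps27l wholly before it, and the others span it.

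Of the 83 members, 63 had a promoter window in the table, with 75 windows among them. A run of 8 or more bases was found in 52 of these 75 windows (69.3%), against 7584 of all 32851 windows (23.1%). The run measured 10 bases in Rpl28 and in Rps15a, 13 in Rpl31, 12 in Rpl37a, 9 in Rps27 and in Rps27l, 8 in Rps26 and 5 in Rpl22. The capitals thus do not separate the members at the high end of the diet comparison from those at its low end. The letters CTTTCC, searched on both strands of the whole window of 300 bases, were present in 37 of the 75 RP windows (49.3%) and in 8725 of all windows (26.6%). Both patterns were chosen after expression values had been seen, and a match is a description of the letters, not of a bound or used site.

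After filtering, 3956 KO, 3490 WT, 4512 HFD and 4938 NCD cells were kept, with 14010241 to 22200627 UMIs per condition and a median of 3193.5 to 3989 UMIs per cell. Srebf2 stood at 3.95 CPM (3.05 to 5.04) in KO cells against 65.7 CPM (61.5 to 70.1) in WT cells, which fits the hashtag labels. A Foxp3 UMI was found in 56.7% of KO, 55.4% of WT, 40.5% of HFD and 53.7% of NCD cells. The 2 libraries share 135 barcodes, 87 of them among the kept cells, out of 9036 and 11456. The dissociation and heat shock list of 14 genes, Fos, Jun and Hspa1a among them, summed to 19098 CPM in KO, 21935 in WT, 7627 in HFD and 19902 in NCD cells, and 13 of its 14 genes were lower in HFD than in NCD cells by at least 20%, as were 15.8% of all genes. Its part in the results below was not tested. Of the stroma and adipocyte list, the 6 genes summed to 11.9 CPM in KO, 6.99 in WT, 63.8 in HFD and 1.89 in NCD cells, and the 4 haemoglobin genes to 82.4, 461, 290 and 87.4 CPM in the same order of conditions. The 2 top cells held 6380 of 6465 haemoglobin UMIs in WT and 4076 of 5376 in HFD. In that order, the 7 B cell genes summed to 14.8, 15.4, 19.4 and 68.4 CPM, and the 6 CD8 T and NK genes to 21.3, 19.1, 22.1 and 28.2 CPM. The 10 macrophage and dendritic cell genes summed to 210, 230, 147 and 255 CPM, of which Cst3 alone had 195, 217, 138 and 218 CPM.

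RP messages made up 18.34% of all UMIs in KO cells and 18.59% in WT cells, a log2 ratio of -0.0197 (-0.0221 to -0.0173). They made up 24.96% in HFD cells and 21.37% in NCD cells, a ratio of 1.17-fold or 0.22 on the log2 scale (0.22 to 0.23). The KO and WT shares therefore lay 0.252 percentage points apart, KO the lower, while HFD lay 3.58 percentage points above NCD. With 99% or more of hashtag counts from the own hashtag, which kept 244 WT cells, the KO over WT log2 ratio was -0.096, and with both Il1rl1 statuses (below) weighted equally it was -0.040. The large subunit accounted for 54.6% of RP UMIs in KO, 54.1% in WT, 53.3% in HFD and 53.9% in NCD cells. Between HFD and NCD the balance of the subunits thus moved far less than the total. Between KO and WT both differences were small. In the median cell, RP UMIs numbered 665 in KO and 659 in WT cells, and 780 in HFD and 832 in NCD cells. All other UMIs numbered 2972 in KO and 2906 in WT cells, and 2367.5 in HFD and 3134.5 in NCD cells. Over all cells the median HFD cell thus had fewer UMIs of other genes and also fewer RP UMIs than the median NCD cell. Split by Il1rl1 detection, as described below, the order of RP UMIs differed: the median Il1rl1+ cell had 803 in HFD and 879 in NCD, and the median Il1rl1- cell 774 in HFD and 655 in NCD. Other UMIs were fewer in HFD within both, at 2924 in HFD and 3314 in NCD for Il1rl1+ cells and 2272 in HFD and 2439 in NCD for Il1rl1- cells. In these data a smaller amount of other RNA and a larger amount of RP mRNA per cell cannot be told apart.

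**Figure D1:**
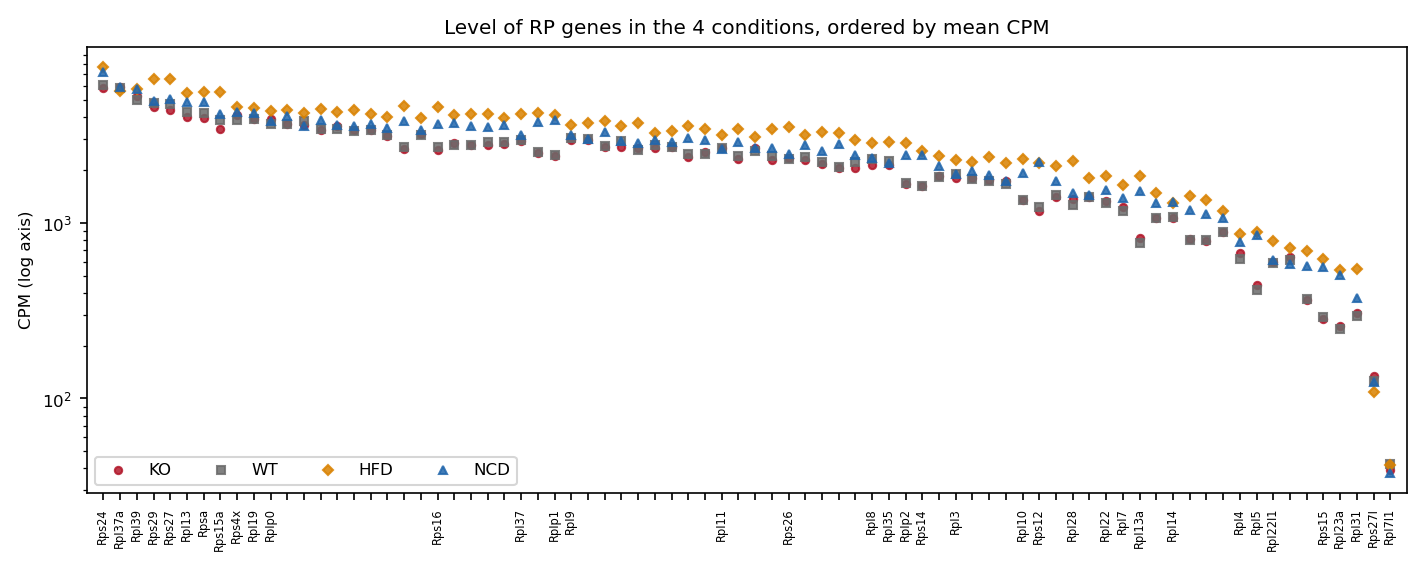
Level of 78 of the 80 RP genes at 20 CPM or more in KO, WT, HFD and NCD cells, in CPM on a log axis, with genes ordered by their mean over the 4 conditions. KO and WT symbols nearly coincide for most genes, while HFD symbols lie above NCD symbols for 73 of the 78 genes shown. Names are given for genes described in the text.

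Levels differed widely among members, although the ribosome takes up nearly all of them in equal number. Over the 80 members, the lowest, median and highest levels were 39.0, 2336 and 5895 CPM in KO cells, 42.4, 2415 and 6074 CPM in WT cells, 42.0, 3296 and 7635 CPM in HFD cells and 37.7, 2774 and 7154 CPM in NCD cells. The lowest in each condition was Rpl7l1, a relative of Rpl7. Apart from Rpl7l1 and Rps27l, a variant copy of Rps27, the other 78 members had means of 200 CPM or more. The low end of the range thus belongs to variant members. Reads came from the 5′ end and 1 UMI stands for 1 captured molecule, so these levels are not divided by gene length, and differences in capture between genes were not measured. Rps24, Rpl37a, Rpl39, Rps29, Rps27, Rpl13, Rpsa, Rps15a, Rps4x and Rpl19 had the highest means. The 10 highest genes of a condition held 24.9% of RP UMIs in KO, 25.0% in WT, 23.1% in HFD and 23.9% in NCD cells. Across the 80 genes the order of levels was nearly shared, with a Spearman correlation of 0.997 between KO and WT, 0.985 between HFD and NCD and 0.959 between NCD and WT. These correlations are across genes and describe pools, with each pair inside an experiment sharing a library.

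No RP gene was higher in KO than in WT cells by 25% or more, or lower by 20% or more. These 2 bounds are the same fold taken in either direction and serve below as a rule of size. Among all 9653 genes at a mean of 5 CPM or more, 5.17% were higher and 4.24% lower in KO cells by that rule. That background includes genes far less abundant than most members, where low counts alone can carry a ratio past the bound. Among 616 other genes at 200 CPM or more, the 5th to 95th percentiles ran from -0.21 to 0.22 on the log2 scale, inside the bound. The count of 0 of 80 is thus not read as a trait of the set. Backgrounds by size given below include such genes too. The median log2 ratio of the members was -0.01, with 34 above 0 and 46 below, against 0.01 for the other genes. Of the 9573 other genes, 4969 lay above 0 and 4602 below. The lowest was Rps15a, a small subunit protein, at 3410 CPM in KO cells (3382 to 3439) and 3823 CPM in WT cells (3790 to 3855), a log2 ratio of -0.16 (-0.18 to -0.15). The highest were Rpl4 at 668 CPM in KO and 621 CPM in WT cells, Rpl28 at 1355 and 1259 CPM, and Rpl5 at 444 and 412 CPM, each with a log2 ratio of 0.11. Rplp0, which anchors the ribosomal stalk, had 3883 CPM in KO and 3620 CPM in WT cells, a log2 ratio of 0.10. Intervals of several members exclude 0, as those of Rps15a and Rplp0 do, but they hold counting error alone and say nothing of how mice differ.

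The spread among members was narrow. Among genes at 200 CPM or more, the standard deviation of the log2 ratio KO over WT was 0.06 over 78 RP genes and 0.19 over 616 other genes. For HFD over NCD it was 0.13 over the same RP genes and 0.77 over the others. By subunit, the KO over WT median was 0.00 for 48 large subunit genes and -0.03 for 32 small subunit genes. Cells were then split by whether they held a UMI of Il1rl1. In Il1rl1+ cells the KO over WT log2 ratio of the RP share was -0.025 and the members' median -0.02, with 35 above 0 and 45 below. In Il1rl1- cells the share ratio was -0.054 and the median -0.05, with 17 above 0 and 63 below. Of the 9573 other genes, 4483 lay above 0 and 5088 below in Il1rl1+ cells, and 5169 above and 4398 below in Il1rl1- cells. In Il1rl1+ cells 0 of 80 members were higher (background 5.28%) and 0 lower (background 6.0%). In Il1rl1- cells 0 were higher (background 10.4%) and 1 was lower (background 8.52%), namely Rpl7l1, a low-level relative of Rpl7, at 37.1 CPM in KO and 51.9 CPM in WT cells.

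In the diet pool, 75 of the 80 members lay above 0 for HFD over NCD, with a median log2 ratio of 0.22 against 0.07 for the other genes. Of the other genes, 5654 of 9573 lay above 0. By the rule of size, 16 members were higher and 0 lower, against a background of 21.4% higher and 15.8% lower over all genes. The count of 16 (of 80) is close to that background and fell to 7 when ratios were recentred on the other genes, so it is the shared direction and small spread, and not the number past the bound, that describes the set. The medians of the subunits were similar, at 0.21 for the large and 0.23 for the small subunit.

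**Figure D2:**
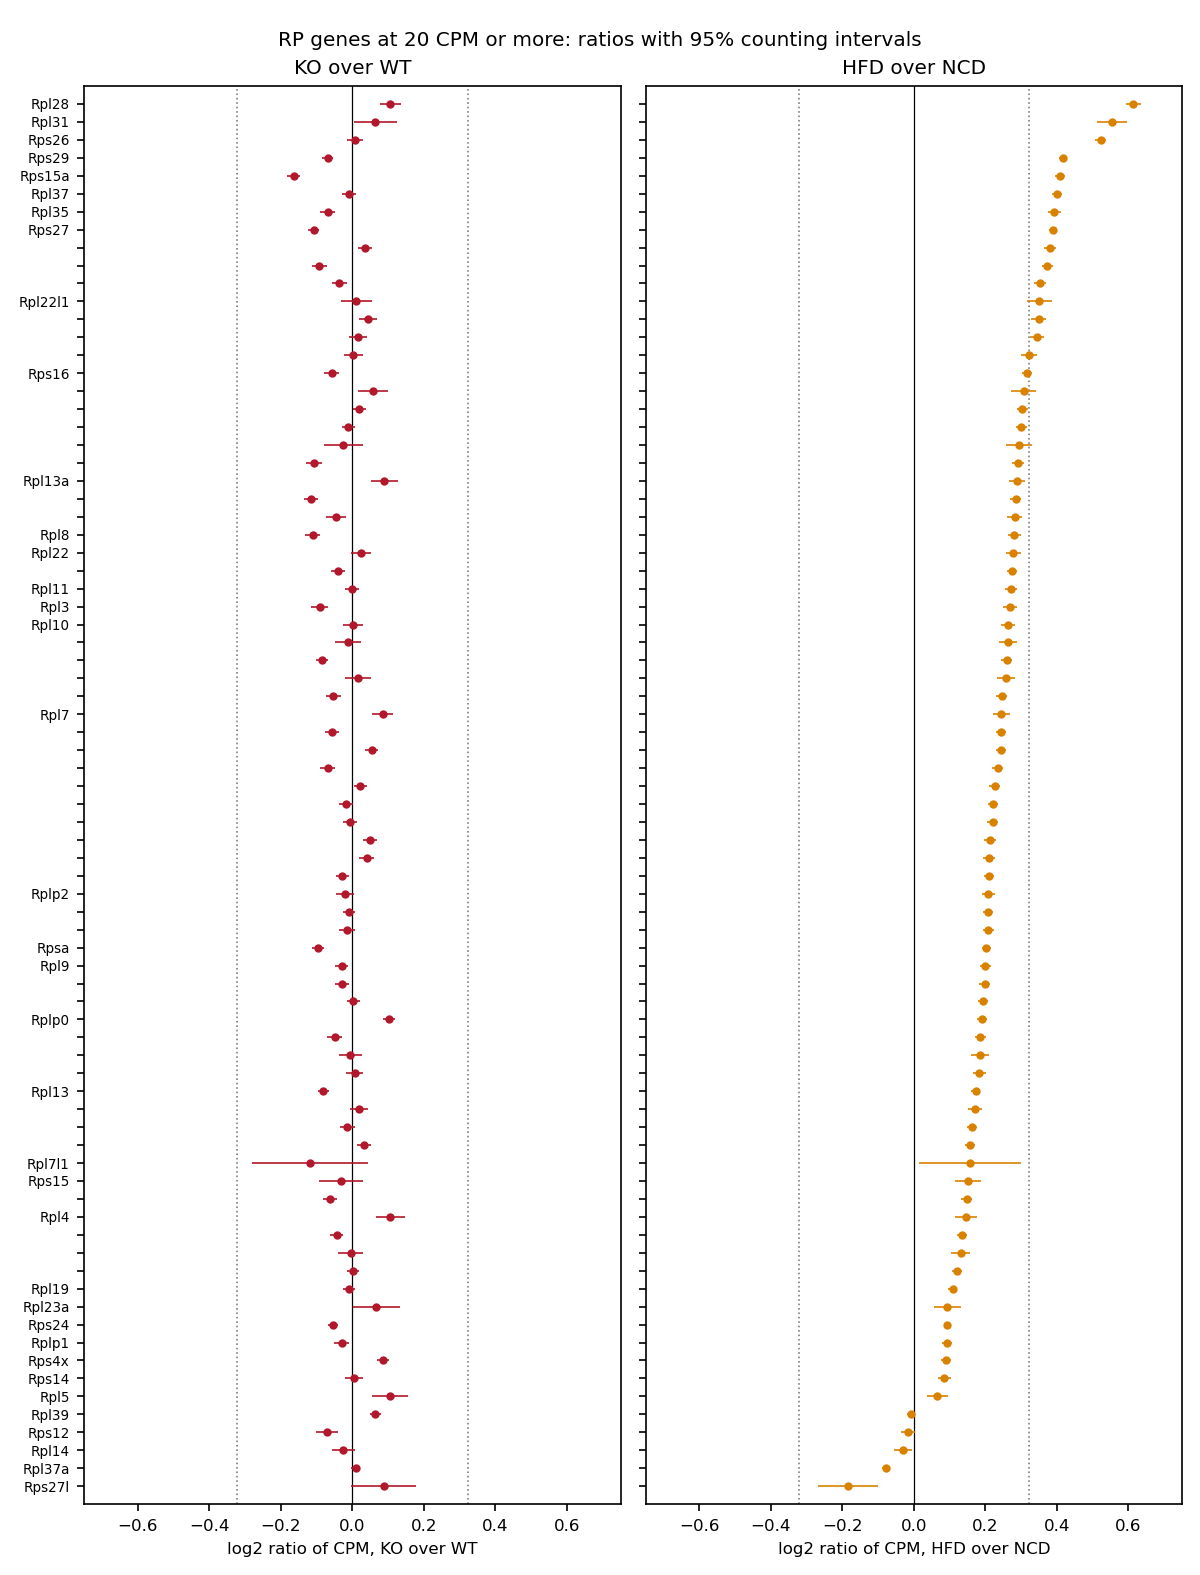
Log2 ratio of CPM for 78 of the 80 RP genes, KO over WT on the left and HFD over NCD on the right, with points as ratios and bars as 95% counting intervals, and dotted lines at 25% higher and 20% lower. KO over WT runs between -0.16 and 0.11, and HFD over NCD between -0.18 (Rps27l) and 0.61 (Rpl28).

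Rpl28, Rpl31 and Rps26 were among the members with the widest differences. Rpl28, a large subunit protein, had 2248 CPM in HFD cells (2226 to 2269) and 1470 CPM in NCD cells (1454 to 1486), a log2 ratio of 0.61. For Rpl31, near the exit of the peptide tunnel, the values were 545 CPM in HFD and 371 CPM in NCD cells, a log2 ratio of 0.55. Rps26, which lies at the mRNA exit channel, had 3506 CPM in HFD and 2442 CPM in NCD cells, a log2 ratio of 0.52. In KO and WT cells the same genes stood at 1355 and 1259 CPM (Rpl28), 306 and 293 CPM (Rpl31) and 2324 and 2313 CPM (Rps26). The HFD value was thus the highest of the 4 conditions for each of them, and the other 3 conditions lay nearer to each other.

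Rps29, Rps15a, Rpl37 and Rpl35 had smaller differences, with log2 ratios of 0.42, 0.41, 0.40 and 0.39. Rps29, a small zinc-binding protein, had 6530 CPM in HFD and 4889 CPM in NCD cells. Rps15a had 5523 CPM in HFD and 4160 CPM in NCD cells. The member with the lowest KO over WT ratio was thus among those with the highest HFD over NCD ratios. At the other end, Rps27l had 109 CPM in HFD cells (105 to 114) and 124 CPM in NCD cells (120 to 129), a log2 ratio of -0.18 (-0.27 to -0.10). Rps27l is a variant copy of Rps27 and, as background, a known p53 target. Rpl37a followed at 5602 CPM in HFD and 5917 CPM in NCD cells, a log2 ratio of -0.08. Neither Rps27l nor Rpl37a was lower in HFD within Il1rl1- cells, as described below. Rpl14, Rps12 and Rpl39 were nearly level at -0.03, -0.02 and -0.01, and Rpl5 and Rps14 stood at 0.07 and 0.09.

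The members with named roles spread over the range. The stalk proteins Rplp0, Rplp1 and Rplp2 had log2 ratios HFD over NCD of 0.19, 0.09 and 0.21, and levels of 4332 and 3799, 4077 and 3824, and 2815 and 2436 CPM in HFD and NCD cells. Rpsa, a small subunit protein also known as the laminin receptor precursor, had 5547 CPM in HFD and 4820 CPM in NCD cells (0.20). Rps4x had 4510 CPM in HFD and 4236 CPM in NCD cells (0.09). Rpl22, known for its role in T cell development, had 1845 CPM in HFD and 1522 CPM in NCD cells (0.28), and its paralog Rpl22l1 had 785 and 615 CPM (0.35).

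Il1rl1, the receptor for IL-33 that marks many VAT Treg cells, was detected with 1 or more UMIs in 58.7% of KO and 71.0% of WT cells, and in 17.6% of HFD and 78.1% of NCD cells. With each cell thinned to 2000 UMIs the shares were 48.4% in KO, 59.9% in WT, 14.3% in HFD and 67.3% in NCD cells. Detection is not the same as expression. Droplets with a UMI of the B cell gene Cd79a, left out here, also held an Il1rl1 UMI in 35.9% (KO), 42.9% (WT), 13.5% (HFD) and 48.1% (NCD) of cases, at median depths of 5793, 6063, 3929 and 7488 UMIs.

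RP messages took a lower share of UMIs in Il1rl1+ than in Il1rl1- cells in all 4 conditions. The shares were 17.78% in Il1rl1+ and 19.36% in Il1rl1- cells of KO, 18.09% and 20.10% of WT, 22.38% and 25.62% of HFD, and 21.16% and 22.44% of NCD. The log2 ratios were -0.12, -0.15, -0.20 and -0.08 in that order of conditions. Il1rl1+ cells were deeper, with median UMIs of 3991.5 and 3166 in the Il1rl1+ and Il1rl1- cells of KO, 3802 and 3046 of WT, 3772 and 3091 of HFD and 4221 and 3103 of NCD. At 2000 UMIs per cell the mean shares were 16.9% in Il1rl1+ and 19.4% in Il1rl1- cells of KO, 17.5% and 19.8% of WT, 21.8% and 25.8% of HFD and 21.0% and 22.2% of NCD, so the direction was as before in each condition.

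**Figure D3:**
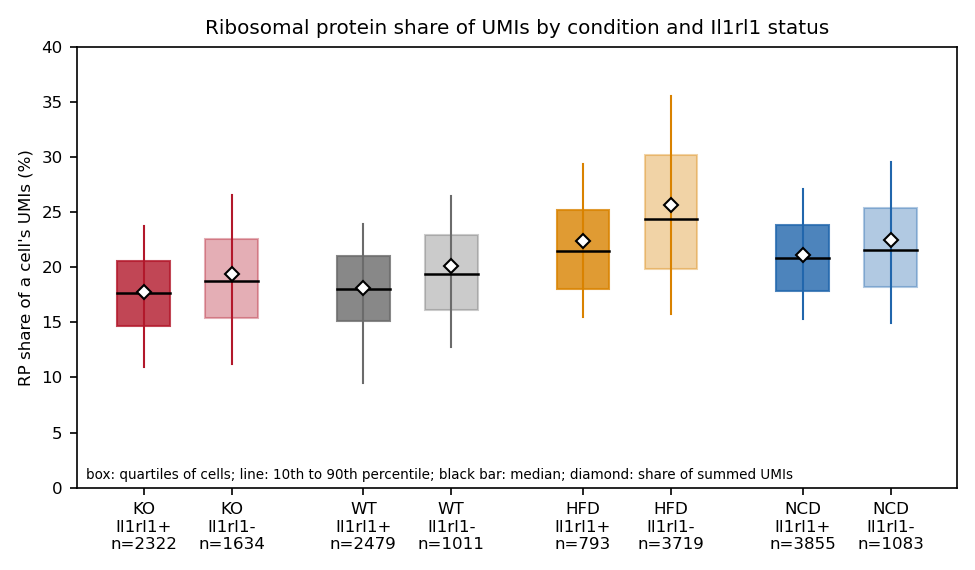
RP share of a cell's UMIs, in percent, for Il1rl1+ and Il1rl1- cells of KO, WT, HFD and NCD, with boxes for quartiles over cells, lines for the 10th to 90th percentile, black bars for medians and diamonds for the share of summed UMIs. Il1rl1+ cells lie below Il1rl1- cells in each condition, and Il1rl1- cells of HFD have the highest share, 25.62%.

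Over 8 sums, Il1rl1+ and Il1rl1- cells of the 4 conditions, 81 members entered the test (edgeR's quasi-likelihood test with condition as a block). Its spread is that of the status difference over 4 unlike conditions in 2 libraries, not of replicate animals. With TMM scaling, 2 members rose in Il1rl1+ cells and 2 fell at an adjusted p of 0.05, against a background of 12.1% risen and 8.05% fallen among all genes. The median log2 change was -0.03 for the members and 0.01 for the other genes. Scaled by library size alone, 1 member rose (background 8.05%) and 53 fell (background 15.3%), with a median of -0.14 for the members and -0.10 for the other genes. The number of falling members therefore rests on the scaling, and the medians show a shift that RP genes share with most other genes. Leaving out a condition also moved the counts: 1 rose and 1 fell in edgeR without KO and likewise without WT, 5 rose and 2 fell without HFD, and 1 rose and 5 fell without NCD. Among all 12311 genes tested without KO, 842 rose and 530 fell, and 987 and 532 of 12548 without WT. Without HFD 1558 rose and 1275 fell of 12514 genes, and without NCD 1004 and 711 of 12593. These member counts are not read as traits of the set.

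Rps27 fell under both scalings. It had 3968 CPM in Il1rl1+ and 5096 CPM in Il1rl1- cells of KO, 4412 and 5602 CPM of WT, 5539 and 6850 CPM of HFD, and 4815 and 6066 CPM of NCD. Each Il1rl1+ value lies below its Il1rl1- partner, by a log2 ratio of -0.36 (KO), -0.34 (WT), -0.31 (HFD) and -0.33 (NCD). The edgeR log2 change was -0.23 ± 0.04 (SE, adjusted p 0.0035) with TMM and -0.34 (adjusted p 0.00024) with library sizes. Its variant copy Rps27l rose, with 145 CPM in Il1rl1+ and 113 CPM in Il1rl1- cells of KO, 131 and 108 CPM of WT, 120 and 107 CPM of HFD and 130 and 97.6 CPM of NCD. The edgeR log2 change of Rps27l was 0.42 ± 0.07 (SE, adjusted p 0.0037) with TMM and 0.31 (adjusted p 0.0092) with library sizes. Both calls held with each condition left out in turn, at adjusted p of 0.0019 to 0.041 for Rps27 and 0.00033 to 0.035 for Rps27l in edgeR. With each cell thinned to 2000 UMIs, Rps27l was at 0.24 and missed the threshold (edgeR, adjusted p 0.075). Within the pair, the 4 conditions all had more Rps27l and less Rps27 in Il1rl1+ cells.

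Rpl37a rose with TMM only. Its levels were 6013 CPM in Il1rl1+ and 5679 CPM in Il1rl1- cells of KO, 5917 and 5683 CPM of WT, 5683 and 5582 CPM of HFD, and 6023 and 5388 CPM of NCD. Its edgeR log2 change was 0.19 ± 0.05 (SE, adjusted p 0.024) with TMM and 0.08 (adjusted p 0.083) with library sizes. It missed the threshold without KO, without WT and without NCD (edgeR, adjusted p 0.14, 0.10 and 0.073), after thinning (0.32) and in cells with a Foxp3 UMI (0.064). Rps15a fell, at -0.15 ± 0.04 (SE, adjusted p 0.047) in edgeR with TMM, and its levels were 3217 and 3766 CPM in Il1rl1+ and Il1rl1- cells of KO, 3627 and 4419 of WT, 4670 and 5743 of HFD, and 4044 and 4743 of NCD. The call of Rps15a was lost without KO and without WT (edgeR, adjusted p 0.073 and 0.19). It was also lost with 99% own hashtag counts, in cells with a Foxp3 UMI and without a filter on low genes (edgeR, adjusted p 0.11, 0.062 and 0.059). Without the condition as a block, Rps15a, Rpl37a and Rps27 all missed the threshold (edgeR, adjusted p 0.60, 0.28 and 0.36), while Rps27l kept it (0.039). Rps16, Rpl8 and Rps12 missed the threshold with TMM, at edgeR log2 changes of -0.16 (adjusted p 0.062), -0.12 (adjusted p 0.13) and 0.18 (adjusted p 0.055).

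Within each condition most members lay lower in Il1rl1+ cells when CPM was compared directly: 68 of 80 in KO, 77 in WT, 77 in HFD and 67 in NCD. Lower in all 4 conditions were 64 members, and higher in all 4 were 2, Rps27l and Rpl37a. Other genes were not counted within each condition. In edgeR with library sizes alone, 8477 of 12708 other genes lay below 0, as did 76 of 81 members. Across the 80 genes, the mean Il1rl1+ over Il1rl1- log2 ratio in the KO and WT cells and the HFD over NCD log2 ratio, which come from separate libraries, had a Pearson correlation of -0.59 (Spearman -0.51). Members that were lower in Il1rl1+ cells of the Srebf2 pool thus tended to be those higher in HFD cells. The cause of this was not tested. Against the HFD over NCD ratio within Il1rl1- cells the correlation was -0.12 (Spearman -0.10). Genes are not independent replicates, and no test is attached to these values.

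**Figure D4:**
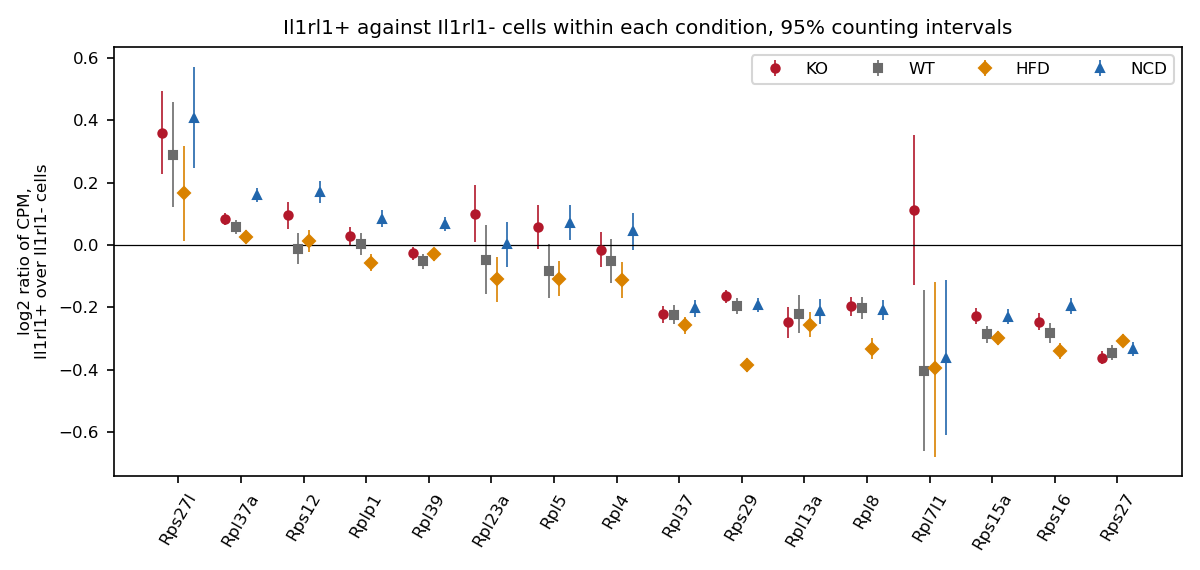
Log2 ratio of CPM in Il1rl1+ over Il1rl1- cells within KO, WT, HFD and NCD for the 8 highest and the 8 lowest RP genes by the edgeR log2 change, with 95% counting intervals. Rps27l and Rpl37a are above 0 in all 4 conditions, and Rps27 lies between -0.36 and -0.31.

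Splitting the diet comparison by Il1rl1 status reduced it. In Il1rl1+ cells the RP share was 22.38% in HFD and 21.16% in NCD cells, a log2 ratio of 0.08. In Il1rl1- cells it was 25.62% in HFD and 22.44% in NCD cells, a log2 ratio of 0.19. With both statuses weighted equally, the log2 ratio over all cells was 0.14, against 0.22 as measured. In Il1rl1+ cells 2 of 80 members were higher by the rule of size (background 21.6%) and 0 lower (background 14.7%), with a median of 0.09 against 0.06 for the other genes. In Il1rl1- cells 8 were higher (background 13.4%) and 0 lower (background 18.1%), with a median of 0.19 against -0.03. There, 79 of 80 members lay above 0, against 4314 of 9573 other genes, and the exception was Rpl7l1 at -0.07. Rpl28 kept a ratio past the bound within both statuses, at 0.35 in Il1rl1+ and 0.51 in Il1rl1- cells, and so did Rpl31 at 0.38 and 0.48. Rps27l and Rpl37a, the lowest members over all cells, were lower in HFD within Il1rl1+ cells only. Rps27l had 120 CPM in HFD and 130 CPM in NCD Il1rl1+ cells, and 107 and 97.6 CPM in Il1rl1- cells. The log2 ratios of Rpl37a were -0.08 in Il1rl1+ and 0.05 in Il1rl1- cells.

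Il1rl1- cells were divided further by the resting lymphocyte genes Ccr7, a homing receptor gene, and Lef1 and Tcf7, transcription factor genes of naive and stem-like T cells. At least 1 UMI of these 3 genes was found in 42.2% of the Il1rl1- cells of KO, 34.1% of WT, 72.1% of HFD and 41.9% of NCD. Cells with such a UMI had RP shares of 21.3% in KO and 21.3% in WT, and of 26.6% in HFD and 23.7% in NCD. Cells without one had 17.7% in KO and 19.4% in WT, and 22.1% in HFD and 21.4% in NCD. Within Il1rl1- cells, the HFD and NCD shares thus lay farther apart in the cells with a resting-gene UMI than in those without. With 1 pool per diet this was not tested.

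The members show the same split. In cells with a resting-gene UMI, 79 of 80 members were above 0 for HFD over NCD, with a median of 0.18, 4 members higher by that rule (background 14.0%) and 0 lower (background 22.2%). In cells without, 56 of 80 were above 0, the median was 0.04, and 0 members were higher (background 21.9%) or lower (background 18.1%). Of the other genes, 4058 of 9572 were above 0 in cells with such a UMI and 5116 of 9567 in cells without. Rpl28 had 2502 CPM in HFD and 1886 CPM in NCD cells with a resting-gene UMI, and 1814 and 1478 CPM in cells without. For Rps26 the values were 3878 and 2967 CPM with such a UMI, and 2824 and 2453 CPM without. Absence of a UMI depends on depth, and the cells without had medians of 2568 UMIs in HFD and 3052 in NCD. At 2000 UMIs per cell the mean share was 27.3% in HFD and 23.3% in NCD cells with a resting-gene UMI, and 23.6% and 21.8% in cells without. For KO over WT, the members' median was 0.01 in cells with a resting-gene UMI, with 41 of 80 above 0, 0 higher (background 13.7%) and 0 lower (background 18.0%). It was -0.12 in cells without, with 5 of 80 above 0, 0 higher (background 18.6%) and 1 lower (background 9.87%). At 2000 UMIs per cell, KO and WT cells with a resting-gene UMI had mean shares of 21.2% and 21.4%. KO and WT cells without one had 18.6% and 19.3%, nearer to each other than before thinning. Of the other genes, 4564 of 9565 were above 0 for KO over WT in cells with such a UMI and 5519 of 9564 in cells without.

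The RP share also moved with depth. In Il1rl1+ cells with 3000 to 4000 UMIs it was 17.3% in KO and 17.9% in WT, and 22.1% in HFD and 20.9% in NCD cells. In Il1rl1- cells of that depth it was 20.2% in KO and 20.1% in WT, and 26.4% in HFD and 22.2% in NCD cells. Below 2000 UMIs the shares fell to 11.98% in Il1rl1+ cells of KO, 9.82% of WT, 15.9% of HFD and 12.4% of NCD. The HFD share was above the NCD share in each of the 5 depth classes of both statuses.

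**Figure D5:**
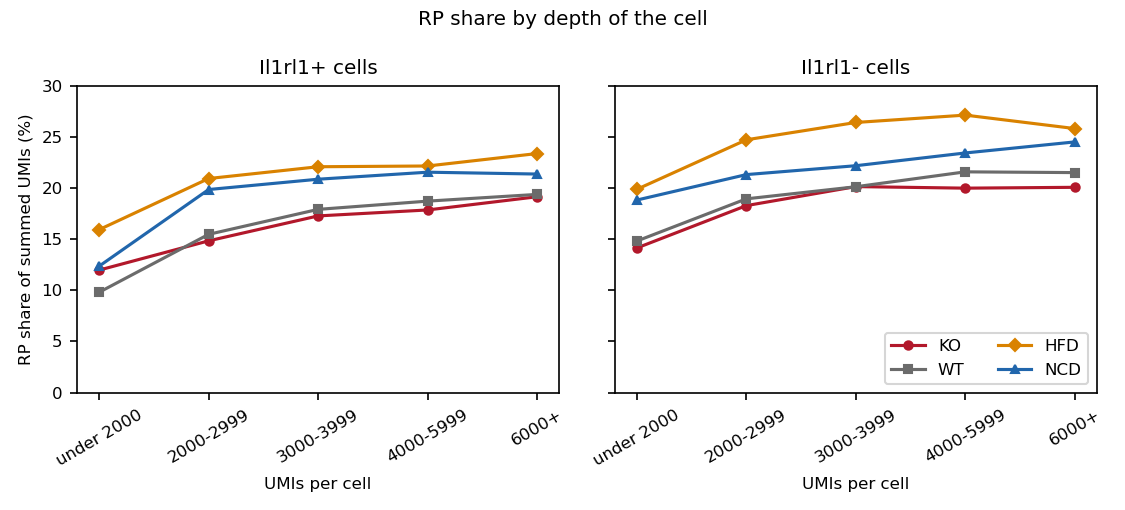
RP share of summed UMIs, in percent, by UMIs per cell in 5 classes, for Il1rl1+ cells on the left and Il1rl1- cells on the right, with a line per condition. HFD lies above NCD in each class, and KO and WT lie below both in each class.

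The distribution of RP shares over cells had a low tail and, in HFD, a high one. Cells with under 10% RP made up 8.85% of KO (7.98% to 9.78%), 9.28% of WT (8.34% to 10.3%), 4.48% of HFD (3.89% to 5.12%) and 2.59% of NCD cells (2.17% to 3.07%). These cells had fewer UMIs than the rest, with medians of 2468 against 3736 in KO, 2198.5 against 3695.5 in WT, 1354 against 3267.5 in HFD and 1658.5 against 4033 in NCD. Their nuclear RNA Malat1 took 2.43% to 2.57% of UMIs, against 0.735% to 0.841% in the rest, and their median mitochondrial share was 2.01% to 3.42%, against 1.31% to 1.55%. Cells with 35% or more RP were 0.758% of KO and 0.487% of WT cells, and 9.80% of HFD and 0.810% of NCD cells. Of the 442 such HFD cells, 424 were Il1rl1-. Cells with UMIs of at least 2 of the division genes Mki67, Top2a, Birc5 and Cdk1 numbered 45 in KO, 35 in WT, 122 in HFD and 59 in NCD, and their RP shares were 19.7%, 18.1%, 23.0% and 19.8% in that order.

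Among the variant members, Rpl22l1 and Rps27l are given above. Rpl39l, a copy of Rpl39 best known from male germ cells, had 12 UMIs in KO cells and 26 in WT cells (0.730 and 1.86 CPM), and 18 in HFD cells and 226 in NCD cells (0.971 and 10.2 CPM). Its NCD value stands apart from the other 3 conditions, at a log2 ratio HFD over NCD of -3.39 (-4.17 to -2.70). The KO over WT ratio, -1.35, turned to 0.39 with cells thinned to 2000 UMIs. Its partner Rpl39 was level at 5753 and 5782 CPM in HFD and NCD cells. The UMIs in NCD were spread over cells, with at most 5 in a single cell, and 4.51% of Il1rl1+ (3.88% to 5.22%) and 1.48% of Il1rl1- cells (0.847% to 2.39%) of NCD held one. In HFD the shares were 0.378% of Il1rl1+ and 0.376% of Il1rl1- cells. Within Il1rl1+ cells the level was 0.788 CPM in HFD (0.162 to 2.30) and 11.3 CPM in NCD cells (9.82 to 12.9), so the difference is present within a status. For Rpl39l the edgeR log2 change in Il1rl1+ over Il1rl1- cells was 0.90 ± 0.34 (SE, adjusted p 0.11).

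Rpl3l, a muscle copy of Rpl3, and Rpl10l, a testis copy of Rpl10, had 0 UMIs in all 4 conditions, while Rpl3 had 1781 CPM in KO and 1898 CPM in WT, and 2260 CPM in HFD and 1877 CPM in NCD cells, and Rpl10 had 1343 and 1341, and 2286 and 1905 CPM. A count of 0 allows up to 0.224 CPM in KO, 0.263 in WT, 0.199 in HFD and 0.166 in NCD cells at the upper end of the interval. Rpl7l1 had 39.0 CPM in KO and 42.4 in WT, and 42.0 in HFD and 37.7 in NCD cells, against 1227 and 1157, and 1634 and 1379 CPM for Rpl7. Pseudogene rows are outside the set, and near-identical copies can share reads. Rps27rt, a retrocopy of Rps27, had 39.4 to 44.4 CPM in the Srebf2 pool and 37.8 to 51.5 in the diet pool, and Rpl9-ps6 had 24.9 to 26.4 and 94.2 to 108 CPM.

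Other genes of the translation machinery were taken as lists. A list of 3 ribosomal genes outside the symbol pattern, Fau (a fusion of an RP with a ubiquitin-like protein), Rpl36al and Rack1, had 0 members past the rule of size in either pool, with a median of 0.05 for KO over WT and 0.11 for HFD over NCD. Of 18 translation factor and related genes of the TOP class, 0 differed between KO and WT by that rule, and 5 were higher (background 21.4%) and 0 lower (background 15.8%) in HFD than in NCD, with a median of 0.23. The count of 5 of 18 is near the share over all genes. Hnrnpa1, Naca, Eif3m and Npm1 led, with log2 ratios of 0.46, 0.44, 0.42 and 0.40. Some genes of the list went below 0, among them the elongation factor genes Eef1a1 and Eef2, at -0.06 and -0.20. The other elongation factor genes of the list lay above 0.

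Of 45 ribosome biogenesis genes, 0 were higher (background 5.17%) and 2 lower (background 4.24%) in KO than in WT, and 9 were higher (background 21.4%) and 2 lower (background 15.8%) in HFD than in NCD. The counts of 2 lower in KO and 9 higher in HFD are near the shares over all genes. The 2 lower genes were Polr1a and Taf1d in both cases. Polr1a, the largest subunit of RNA polymerase I, had 34.0 CPM in KO and 43.0 in WT, and 19.0 in HFD and 65.0 in NCD cells, and Taf1d, of its initiation factor, had 143 and 179, and 109 and 180 CPM. Both rose in Il1rl1+ cells in edgeR with TMM, Polr1a by 0.78 (adjusted p 0.00034) and Taf1d by 0.50 (adjusted p 0.0021). Among 23 genes that control ribosome synthesis or TOP translation, 0 differed between KO and WT by that rule, and 6 were higher (background 21.4%) and 2 lower (background 15.8%) in HFD than in NCD. The lower genes were Eif4ebp1, an mTOR target that restrains translation, at 24.3 CPM in HFD and 47.3 CPM in NCD cells, and Myc, which drives ribosome synthesis, at 91.5 and 153 CPM. The count of 6 of 23 higher is near the share over all genes. Among these 6, Eif4e had 75.3 CPM in HFD and 54.7 CPM in NCD cells. Larp1, a repressor of TOP mRNA translation, had 41.3 CPM in HFD and 31.3 CPM in NCD cells.

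The mitochondrial RP genes, 78 members in the files, build a separate ribosome and serve as a contrast. In KO over WT 0 were past the bound in either direction, with a median of -0.02. In HFD over NCD 13 were higher (background 21.4%) and 1 lower (background 15.8%), with a median of 0.07, equal to the median of the other genes, against 0.22 for the cytosolic set. With TMM, edgeR called 2 higher (background 12.1%) and 3 lower (background 8.05%) in Il1rl1+ cells at an adjusted p of 0.05.

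The 2 control groups came from different experiments, mouse lines and libraries, and their matrix headers name different Cell Ranger versions, 7.0.1 for the diet pool and 7.1.0 for the Srebf2 pool. These cannot be told apart as sources of a difference between the groups. For NCD over WT the median log2 ratio of the members was 0.20, with 72 of 80 above 0, against -0.07 for the other genes. The widest gaps belonged to Rpl5 at 848 CPM in NCD and 412 in WT cells, Rpl23a at 503 and 248, Rpl13a at 1508 and 766 and Rps15 at 558 and 290 CPM. The same 4 genes had 888, 537, 1841 and 620 CPM in HFD, and 444, 259, 815 and 283 CPM in KO cells, so their gap lay between the pools whichever condition was used. The NCD over WT log2 ratios of Rpl5 and Rpl23a, 1.04 and 1.02, exceeded the highest ratio within either pool, 0.61. These genes were named after their values had been seen.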

How the data were processed

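Counts are raw whole-number UMI counts per gene and barcode, deposited by the authors as filtered matrices for each gene expression and hashtag library. Per the submitters' processing notes, reads were processed with Cell Ranger 7.0.1 on mm10, while the matrix header of the Srebf2 pool names version 7.1.0. Other fields of the deposited tables (barcodes, gene names) are labels. Cells were kept with 500 or more genes, under 10% mitochondrial UMIs, 90% or more of hashtag counts from their own hashtag, and 0 UMIs of Cd79a, Lyz2 and Cd8a. No doublet caller was run; the hashtag rule removes only doublets between conditions. Median hashtag counts per barcode were 2472.5 in the Srebf2 pool and 405 in the diet pool, and 1149 and 982 barcodes missed the 90% rule. UMIs were summed by condition and Il1rl1 status. Shares and Poisson counts have exact 95% intervals, and a ratio's interval comes from the exact binomial split of both counts; all cover counting error only. With 1 pool of mice per condition no test was made between conditions, and a level 25% higher or 20% lower was used as a rule of size for genes at a mean of 5 CPM or more.

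Il1rl1+ and Il1rl1- sums were tested with edgeR 4.0.16 (R 4.3.3), glmQLFit and glmQLFTest, filterByExpr, TMM, condition as a block (3 residual degrees of freedom), Benjamini-Hochberg over 12789 genes, threshold 0.05. SE is the absolute log2 change over the square root of F. The test was checked on simulated data. DESeq2 1.42.0 was an alternative. Genes named are the 8 highest and 8 lowest per comparison among members at 20 CPM or more, the 10 most abundant, fixed family members, and up to 4 from each list, less 2 members not reported here by name. The members and lists were chosen with earlier results of these data known, and the resting-gene split was added after values had been seen. Hashtag conditions come from the labels, and pools share no mice. RefSeq tables of GRCm38.p6 supplied sequences and coordinates.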

Additional observations from a re-analysis of the deposited data

Results flagged for a closer look

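Only the members named by rule were searched here. For 4 of them, the Il1rl1+ over Il1rl1- log2 ratio had opposite signs in HFD and NCD cells with both 95% counting intervals excluding 0. It was -0.18 in HFD and 0.030 in NCD for Rplp0, -0.056 and 0.085 for Rplp1, -0.11 and 0.072 for Rpl5 and -0.029 and 0.068 for Rpl39. Each value comes from 1 pool of mice per condition, so the difference was not tested. In KO and WT cells the ratios were -0.02 and -0.06 for Rplp0, 0.03 and 0.00 for Rplp1, 0.06 and -0.08 for Rpl5 and -0.03 and -0.05 for Rpl39, all within 0.1 of 0.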

How the results depend on the processing

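Values are log2 ratios unless they are counts, and "share" is the RP share of UMIs. Every share and median of the members kept its direction under each alternative run for it, while many moved by more than their counting interval, which is narrow at this depth. With 1000 or more genes per cell the KO over WT share was -0.023 and median -0.012, the HFD over NCD share and median 0.23, and the Il1rl1+ over Il1rl1- share -0.13 in KO and -0.20 in HFD. With under 5% mitochondrial UMIs the HFD over NCD share and median were 0.23, and the Il1rl1+ over Il1rl1- share was -0.13 in KO. With 99% own hashtag counts, which leaves 244 WT cells, the KO over WT share was -0.096 and median -0.086, the HFD over NCD share and median were 0.20, the Il1rl1+ over Il1rl1- shares were -0.10, -0.093, -0.17 and -0.057 in KO, WT, HFD and NCD, and 1 member fell in Il1rl1+ cells. With the wider marker filter the KO over WT share was -0.022, the HFD over NCD median 0.23 with 1 member lower by size, the Il1rl1+ over Il1rl1- shares -0.13 in KO and -0.22 in HFD, and 6 members fell. With no marker filter the KO over WT share was -0.031 and median -0.019, the HFD over NCD share and median 0.20, the Il1rl1+ over Il1rl1- shares -0.13, -0.18, -0.17 and -0.11 in the same order of conditions, and 12 members fell. In cells with a Foxp3 UMI the KO over WT share was -0.025, the HFD over NCD share 0.21, the Il1rl1+ over Il1rl1- shares -0.11, -0.18, -0.18 and -0.056, and 1 member rose and 1 fell. Thinned to 2000 UMIs, the KO over WT share was -0.023 and median -0.013, the HFD over NCD share and median 0.24 with 1 member lower by size, the Il1rl1+ over Il1rl1- shares -0.20, -0.17 and -0.24 in KO, WT and HFD, and 0 members rose in edgeR (1 at an unadjusted p under 0.05) and 5 fell. Without mitochondrial genes and Malat1 in the total, the HFD over NCD share and median were 0.23. As a mean over cells, the KO over WT share was -0.0092, the HFD over NCD share 0.20, and the Il1rl1+ over Il1rl1- shares -0.13, -0.16 and -0.056 in KO, WT and NCD. With both statuses weighted equally, the KO over WT share was -0.040 and median -0.032, and the HFD over NCD share and median were 0.14. Recentred on genes that are not RP genes, the KO over WT median was -0.016 and the HFD over NCD median 0.15, with 7 members higher by size in HFD. Among all genes tested in edgeR, 499 of 11492 fell in Il1rl1+ cells with 99% own hashtag counts. With the wider marker filter 1017 of 12372 fell, and with no marker filter 1201 of 13398. In cells with a Foxp3 UMI 1105 rose and 574 fell of 11839, and after thinning 876 rose and 538 fell of 11186.

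Without a filter on low genes, 1 member was lower by size in KO over WT and 1 in HFD over NCD, both Rpl39l, and in edgeR 5 rose and 1 fell. A bound of 1.5-fold left 2 members higher in HFD, and 1.1-fold gave 64 higher and 1 lower, with 1 lower in KO. The shares over all genes at these bounds were not counted, so these counts are not read as traits of the set. For Il1rl1+ over Il1rl1-, edgeR with library sizes gave 1 risen and 53 fallen, TMM factors from genes that are not RP genes 6 fallen, and DESeq2 2 risen and 3 fallen. Without the condition as a replicate block, 1 rose and 0 fell in edgeR (0 fell at an unadjusted p under 0.05). Leaving out a condition gave 1 to 5 risen and 1 to 5 fallen. Of all genes, 1988 rose and 1400 fell of 22297 in edgeR without a filter on low genes. TMM factors from genes that are not RP genes gave 1129 fallen of 12789. DESeq2 gave 1025 risen and 688 fallen of 22297, and edgeR without the block 224 risen and 130 fallen of 11958. Rpl39l turned to 0.39 for KO over WT when thinned, from few UMIs. The cause of these shifts was not tested.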
